A study of Mus musculus with 6 samples.

Results

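The tumour necrosis factor (TNF) superfamily was followed across 6 mouse cardiac grafts. Members were all genes whose symbol begins with Tnfsf or Tnfrsf, together with Tnf, Lta, Ltb, Ltbr, Fas, Cd27 and Cd40. The rule found 33 of the 12393 genes measured, of which 10 encode ligands and 23 encode receptors. It reads symbols only, but it was chosen with earlier results of these data known. They were read by 48 probe sets assigned to a single gene, 12 for ligands and 36 for receptors. Tnfsf12, Tnfsf13, Tnfsfm13, Tnfsf15, Tnfsf18, Tnfrsf26 and the non-coding Tnfsf13os had no such probe set and were not analysed here.

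Total RNA of each graft was measured on 1 Affymetrix oligonucleotide array per group. The untreated groups were a syngraft, a heart placed in a recipient of the same genetic background, and an allograft, a heart placed in a genetically different recipient. The treated groups were allografts whose recipients were given 1 agent each. ABH4 (4-amino tetrahydrobiopterin) and BH4 (tetrahydrobiopterin, the natural pterin cofactor of nitric oxide synthases) were each given at 50 mg/kg every 8 h. CsA (cyclosporin A, a calcineurin inhibitor) was given at 15 mg/kg every 24 h, and NIL (N-imino ethyl-L-lysine, an inhibitor of inducible nitric oxide synthase) at 5 mg/kg every 8 h. The mouse strains, the day of graft removal and any pooling of grafts are unknown here. With 1 array per group, no difference below has a replicate check, no test was possible, and the number of arrays limits the precision.

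Ligands of the TNF superfamily are mostly trimeric membrane proteins of immune cells, some of which are cut from the surface by proteases. Their receptors signal through TRAF adaptors to the NF-kB transcription factors or, where they carry a death domain, to caspases. In a rejected transplant the family is known for T cell costimulation, for the activation of endothelium and macrophages, and for the killing of target cells.

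Values are the deposited signal intensities after each array was rescaled to a common median. The 30th percentile of all rescaled signals, 34.8, was taken as background, and a signal at or below it is called below background. The bacterial control probe sets gave an independent reading of it, with 4 of their 162 values above 34.8 and none above 47.3. A gene took the signal of its brightest single-gene probe set. A difference is reported as such from 2-fold upwards, with signals below background set to 34.8, so that a fold against such a signal is a lower bound and is given as at least. Signals of different genes were not compared, because probe sets differ in brightness for the same amount of RNA.

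The arrays differed little in depth of detection, with 73.6% to 76.9% of all genes above background. The 6 cardiomyocyte marker genes were above background on every array, and their summed signal lay between 26974 and 33693. The 6 T cell marker genes measured of 8 listed (Cd3e, Cd3d, Cd3g, Cd2, Cd5 and Cd247) summed to 222 in the syngraft, 1773 in the untreated allograft, 1892 with ABH4, 1247 with BH4, 258 with CsA and 1864 with NIL, with values below background counted as 34.8. In the syngraft 5 of the 6 were below background, all but Cd5 (48.1). With CsA 3 were below it (Cd3e, Cd3d and Cd2), and Cd3g, Cd5 and Cd247 read 63.2, 53.1 and 37.2. All 6 were above background on the other arrays. The 6 markers of natural killer and cytotoxic cells summed to 298, 6801, 6831, 4771, 803 and 6148 in the same order. The fibroblast markers summed to 15228 in the syngraft, 2039 in the untreated allograft, 4421 with ABH4, 8969 with BH4, 13473 with CsA and 2023 with NIL. The BH4 array stood apart in that its 4 salivary gland marker genes summed to 10479, against 193 to 476 on the other arrays. In whole grafts, fewer cells of a type and less RNA per cell cannot be told apart.

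Of the 33 members, 31 were above background on at least 1 array (93.9%, against 85.2% of all genes), which were 9 of 10 ligands and 22 of 23 receptors. With the highest bacterial control value, 47.3, taken as background instead, 26 members were above it, 8 ligands and 18 receptors. The share of all genes was not computed at that level. On all 6 arrays 16 were above background (48.5%, against 65.3% of all genes), which were 3 of 10 ligands (30%) and 13 of 23 receptors (56.5%). Array by array, members above background numbered 23 in the syngraft, 25 in the untreated allograft, 25 with ABH4, 23 with BH4, 23 with CsA and 27 with NIL. Ligands accounted for 6, 7, 8, 8, 6 and 8 of these and receptors for 17, 18, 17, 15, 17 and 19. The difference between ligands and receptors in these shares was not tested. Tnfsf11 (RANKL, the osteoclast differentiation ligand) and Tnfrsf11b (osteoprotegerin, its soluble decoy) were below background on every array.

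**Figure D1:**
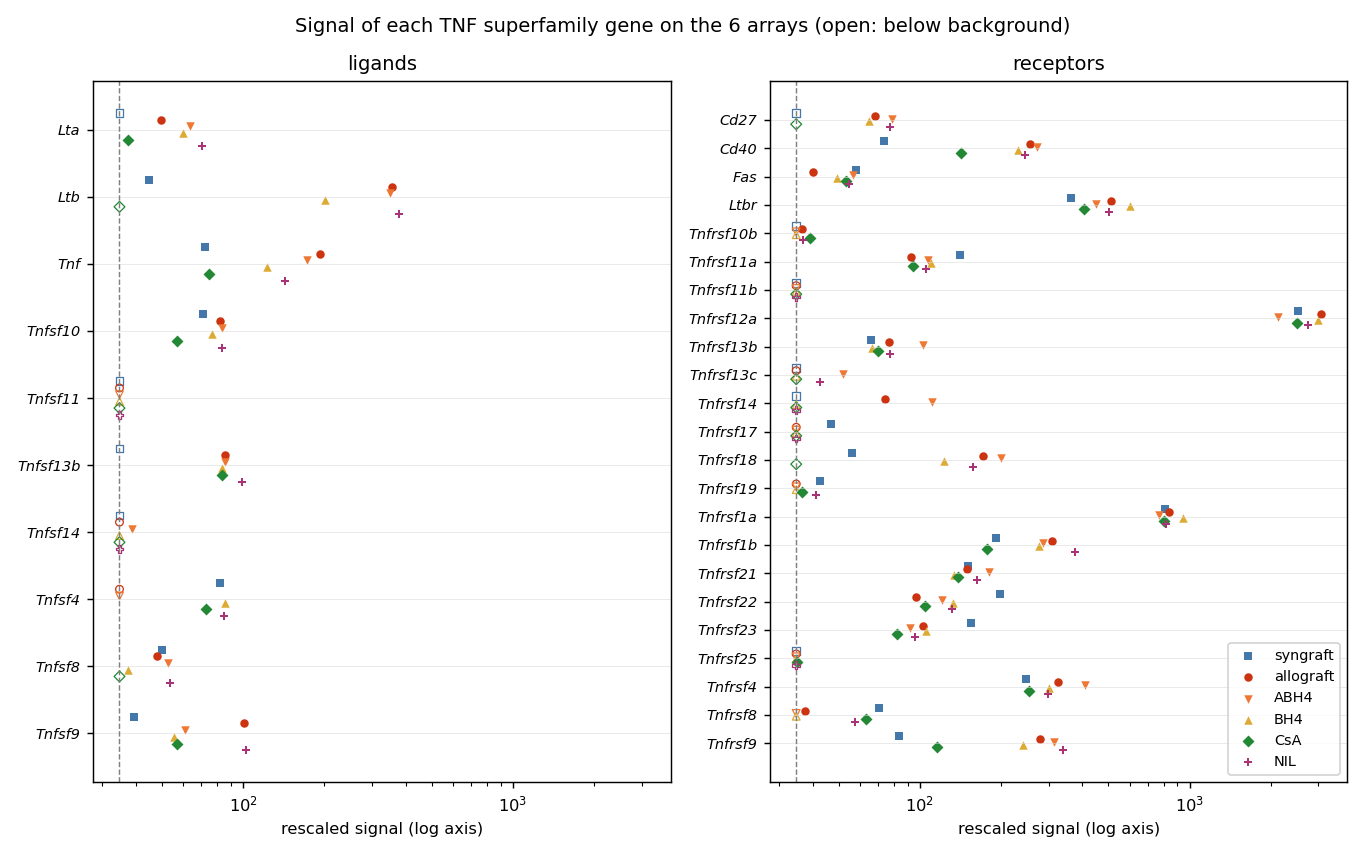
Rescaled signal (log axis) of the 10 ligands and the 23 receptors on the 6 arrays, 1 point per array, with open points below the background of 34.8 (dashed line) and drawn on it. Ltb runs from below background with CsA to 378 with NIL, whereas Tnfrsf1a stays between 770 and 943.

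Across the arrays 19 members (57.6%, against 78.3% of all genes) spanned less than 2-fold between their lowest and highest value. The remainder were 6 of the 10 ligands and 8 of the 23 receptors. On all 5 allografts 4 ligands and 5 receptors (27.3% of members, against 20.3% of all genes) had a value above that of the syngraft. The ligands were Lta, Tnf, Tnfsf13b and Tnfsf9, and the receptors were Cd40, Ltbr, Tnfrsf13b, Tnfrsf4 and Tnfrsf9. No ligand and 7 receptors (21.2% of members, near the 21.4% of all genes) were below the syngraft on all 5, namely Fas, Tnfrsf11a, Tnfrsf17, Tnfrsf19, Tnfrsf22, Tnfrsf23 and Tnfrsf8. These counts share the single syngraft array and apply no fold threshold, so that some rest on small margins. In the syngraft Fas read 57.8 against 56.6 with ABH4, and Tnfrsf19 42.7 against 41.1 with NIL. Tnfrsf13b read 65.7 there against 66.2 with BH4. Tnfrsf17 was below background on all 5 allografts.

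The promoters of Ltb, Tnf, Tnfrsf9, Tnfrsf18 and Tnfrsf14 are shown because the untreated allograft exceeded both the syngraft and the CsA graft by 2-fold or more for these 5 members and for no other. Each sequence is the 250 bases before the transcription start, 5′ to 3′ on the gene's own strand, from RefSeq (mouse GRCm38.p6). Capitals mark matches, on either strand, to GGNNTTTCC, a 9-base form of the NF-kB motif, to TTCNNNGAA, the GAS motif of STAT factors, and to TTCNNTTTC, part of the interferon-stimulated response element. Of the 2 starts listed for Tnfrsf9 the one with matches is shown, and the other had none.
Ltb (chr17:35194257-35194506, plus strand): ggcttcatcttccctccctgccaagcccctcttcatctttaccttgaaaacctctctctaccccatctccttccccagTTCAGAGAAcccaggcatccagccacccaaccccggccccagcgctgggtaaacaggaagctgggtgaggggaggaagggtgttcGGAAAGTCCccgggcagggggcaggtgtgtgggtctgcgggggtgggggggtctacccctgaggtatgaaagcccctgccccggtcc
Tnf (chr17:35202008-35202257, minus strand): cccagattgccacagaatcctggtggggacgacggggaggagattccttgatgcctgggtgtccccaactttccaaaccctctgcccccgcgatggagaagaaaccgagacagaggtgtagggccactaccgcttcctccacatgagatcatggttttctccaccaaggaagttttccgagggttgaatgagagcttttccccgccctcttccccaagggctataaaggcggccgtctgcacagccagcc
Tnfrsf9 (chr4:150927749-150927998, plus strand): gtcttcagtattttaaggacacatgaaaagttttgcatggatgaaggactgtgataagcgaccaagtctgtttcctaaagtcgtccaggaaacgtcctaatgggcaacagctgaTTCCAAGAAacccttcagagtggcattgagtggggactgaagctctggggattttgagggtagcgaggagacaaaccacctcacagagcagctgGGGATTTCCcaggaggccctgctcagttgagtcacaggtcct
Tnfrsf18 (chr4:156026072-156026321, plus strand): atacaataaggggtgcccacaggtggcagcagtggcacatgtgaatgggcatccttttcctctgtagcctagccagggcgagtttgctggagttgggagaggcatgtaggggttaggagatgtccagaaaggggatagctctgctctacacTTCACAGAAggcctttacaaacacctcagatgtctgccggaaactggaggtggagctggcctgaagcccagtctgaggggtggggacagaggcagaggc
Tnfrsf14 (chr4:154928078-154928327, minus strand): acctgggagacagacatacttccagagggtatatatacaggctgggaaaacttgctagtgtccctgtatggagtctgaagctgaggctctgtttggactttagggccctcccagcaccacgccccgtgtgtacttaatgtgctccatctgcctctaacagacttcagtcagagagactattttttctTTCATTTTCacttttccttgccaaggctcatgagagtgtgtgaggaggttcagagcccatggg

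Promoter sequence was found for 27 of the 33 members, with 31 starts. Matches below are counted by member, in any of its starts, whereas the percentages are of single promoters. The counts and percentages are therefore not in the same unit. The NF-kB letters were in the 250 bases of 4 members (Ltb, Tnfrsf13b, Tnfrsf25 and Tnfrsf9) and in 4.93% of the 32851 promoters of the table. In Ltb they lay 87 to 79 bases before the start, and in Tnfrsf9 42 to 34 bases before it. The GAS letters were in 8 members (Fas, Lta, Ltb, Tnfrsf18, Tnfrsf1a, Tnfrsf1b, Tnfrsf25 and Tnfrsf9) and in 7.02% of all promoters. The response element letters were in 6 members (Tnfrsf14, Tnfrsf17, Tnfrsf1b, Tnfrsf4, Tnfsf13b and Tnfsf8) and in 7.13% of all promoters. In Tnfrsf14 they lay 63 to 55 bases before the start. The matches in the 5 genes shown do not overlap each other. The Tnf window held none of these letters, which says only that these letters are not in it. Members with a match were found both among those that differed between grafts and among those that did not, and a match is no binding site.

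In the untreated allograft against the syngraft, 8 of the 33 members were at least 2-fold higher (24.2%, against 6.87% of all genes) and 2 were at least 2-fold lower (6.06%, against 4.81% of all genes). Higher were the ligands Ltb, Tnf, Tnfsf9 and Tnfsf13b and the receptors Cd40, Tnfrsf9, Tnfrsf18 and Tnfrsf14. Lower were the ligand Tnfsf4 and the receptor Tnfrsf22. By kind, 4 of 10 ligands and 4 of 23 receptors were higher, and 1 of each was lower. The median log2 difference was 0.35 for ligands and 0.06 for receptors, against 0 for all genes. Over the members above background on at least 1 of the compared arrays it was 0.91 for 8 ligands and 0.15 for 20 receptors, against 0.05 for the 10022 genes. The share of receptors that were lower (4.35%) was near that of all genes.

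**Figure D2:**
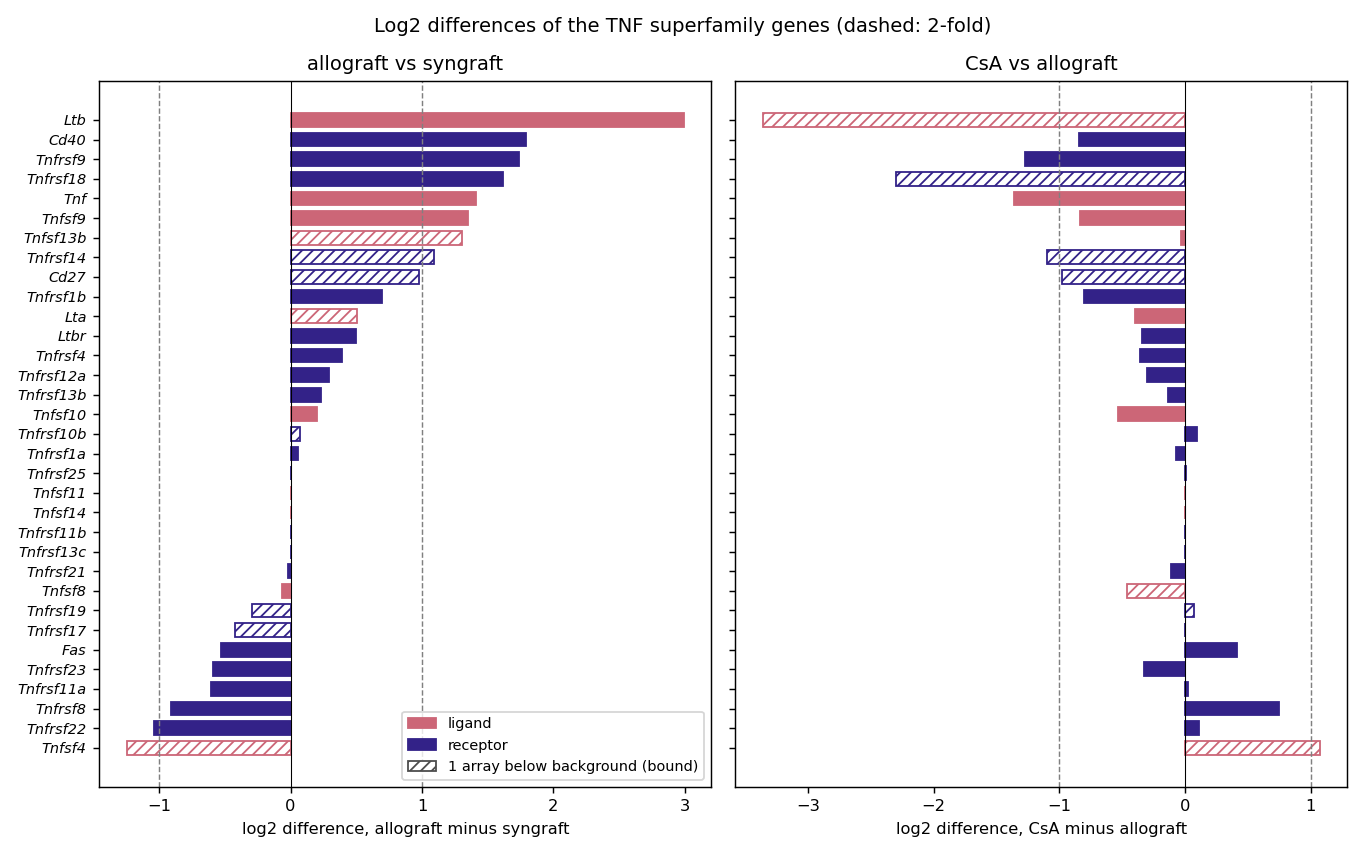
Log2 differences of the 33 members, untreated allograft minus syngraft (left) and CsA-treated minus untreated allograft (right), with ligands and receptors in separate colours, hatched bars where 1 array was below background and dashed lines at 2-fold. Ltb has the longest bar in both panels, 2.99 on the left and -3.36 on the right, the latter a bound.

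Among the ligands of the lymphotoxin branch, Ltb encodes lymphotoxin beta, which anchors lymphotoxin alpha at the surface of lymphocytes. Its signal was 44.9 in the syngraft, 357 in the untreated allograft, 351 with ABH4, 200.3 with BH4, below background with CsA and 378 with NIL. The untreated, ABH4 and NIL grafts were high and BH4 was in between. The syngraft and CsA grafts were low, and the syngraft signal was itself under the highest bacterial control value (47.3). The untreated allograft was 7.95-fold above the syngraft and at least 10.3-fold above the CsA graft. Lta, which encodes the alpha subunit, was below background in the syngraft and read 49.4 in the untreated allograft, 63.5 with ABH4, 60.04 with BH4, 37.5 with CsA and 70.2 with NIL. It stayed close to background throughout, and its difference between allograft and syngraft was a bound of at least 1.42-fold. Ltbr, the lymphotoxin beta receptor of stromal and myeloid cells, read 364 in the syngraft, 513 in the untreated allograft, 451 with ABH4, 604 with BH4, 404 with CsA and 503 with NIL. All 5 allografts were above the syngraft, but no comparison of Ltbr reached 2-fold. In the RefSeq gene table Ltb, Tnf and Lta are direct neighbours, with no protein-coding gene between them.

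Tnf, the cytokine after which the family is named, read 72.4 in the syngraft, 192 in the untreated allograft, 173 with ABH4, 123 with BH4, 74.7 with CsA and 143 with NIL. The untreated allograft was the highest array, 2.66-fold above the syngraft, and the CsA graft was close to the syngraft. Its receptors spanned a smaller fold between arrays. Tnfrsf1a, the widely expressed death-domain receptor of TNF, read 810 in the syngraft, 841 in the untreated allograft, 770 with ABH4, 943 with BH4, 801 with CsA and 814 with NIL. Its highest array was 1.22-fold above its lowest. Tnfrsf1b, the TNF receptor of immune and endothelial cells, read 191 in the syngraft, 308 in the untreated allograft, 285 with ABH4, 277 with BH4, 177 with CsA and 375 with NIL. The syngraft and CsA arrays were the low ones, and the allograft was 1.62-fold above the syngraft. Its second probe set gave a smaller difference, 153 in the syngraft against 192 in the untreated allograft, and did not repeat the low value with CsA (195).

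Several members are costimulatory pairs, in which a ligand on antigen-presenting cells meets a receptor on activated T cells. Of the 10 measured genes of this group, 4 (40%, against 6.87% of all genes) exceeded the syngraft by 2-fold or more in the untreated allograft and 1 (10%, against 4.81%) was below it by as much, with a median log2 difference of 0.68. Tnfrsf9 (4-1BB) read 83.4 in the syngraft, 279 in the untreated allograft, 314 with ABH4, 241 with BH4, 115 with CsA and 341 with NIL. The syngraft and CsA grafts were low and the others high, with 3.34-fold between untreated allograft and syngraft. A second probe set of Tnfrsf9 was below background in the syngraft and with CsA and read 101, 110, 41.1 and 84.0 in the untreated, ABH4, BH4 and NIL grafts. Another read 40.8 in the untreated allograft, 55.2 with CsA and 61.9 with NIL and was below background elsewhere, so that the probe sets of this gene disagreed on CsA. Its ligand Tnfsf9 read 39.5 in the syngraft, 101 in the untreated allograft, 60.9 with ABH4, 55.3 with BH4, 56.6 with CsA and 103 with NIL. The untreated and NIL grafts were the high ones, and the untreated allograft was 2.55-fold above the syngraft. That syngraft signal was under the highest bacterial control value (47.3).

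Tnfrsf18 (GITR, a receptor of regulatory and activated T cells) read 55.8 in the syngraft, 171 in the untreated allograft, 199.8 with ABH4, 123 with BH4, below background with CsA and 157 with NIL. It was 3.07-fold higher in the untreated allograft than in the syngraft, and the CsA graft was below the syngraft. Tnfrsf4 (OX40), its direct neighbour in the RefSeq table, read 247 in the syngraft, 325 in the untreated allograft, 408 with ABH4, 299.8 with BH4, 254 with CsA and 299 with NIL. No comparison of Tnfrsf4 reached 2-fold. Its ligand Tnfsf4 read 82.3 in the syngraft, 85.4 with BH4, 73.1 with CsA and 84.6 with NIL, and was below background in the untreated allograft and with ABH4. The 4 arrays that detected it were alike, and the allograft was at least 2.37-fold below the syngraft.

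Tnfrsf14 (HVEM, the receptor of LIGHT and of BTLA) was above background on 2 arrays, the untreated allograft with 74.3 and the ABH4 graft with 111. The other 4 arrays were below background, and the untreated allograft was at least 2.14-fold above the syngraft. On the deposited values without rescaling, that log2 difference was 0.998, just under the 2-fold threshold. Its ligand Tnfsf14 (LIGHT) was above background on the ABH4 array alone, with 38.7. Cd27, a receptor of T and memory B cells, was the member closest to the threshold from below and was picked out after its values were seen. It was below background in the syngraft and with CsA and read 68.4 in the untreated allograft, 78.9 with ABH4, 64.6 with BH4 and 77.3 with NIL, a difference of at least 1.97-fold between allograft and syngraft. Tnfsf8 (CD30 ligand) lay between background and 53.5 and its receptor Tnfrsf8 (CD30) between background and 70.3, with the highest Tnfrsf8 signal in the syngraft.

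Ltb, Tnfrsf18, Cd27 and, by its brightest probe set, Tnfrsf9 were each low on the arrays on which the T cell markers were low. These arrays were the syngraft and the CsA graft, where the markers summed to 222 and 258 against 1247 to 1892 on the other arrays. The costimulation genes Tnfsf4 and Tnfrsf8 were not low there, at 82.3 and 70.3 in the syngraft and 73.1 and 63.0 with CsA. In the untreated allograft Tnfsf4 was below background and Tnfrsf8 read 37.5. The part of T cell number in these differences was not tested.

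Cd40, the receptor of B cells, dendritic cells, macrophages and activated endothelium for the T cell ligand CD40L, read 73.8 in the syngraft, 256 in the untreated allograft, 273 with ABH4, 231 with BH4, 142 with CsA and 244 with NIL. All 5 allografts were above the syngraft, the CsA graft least so, and the untreated allograft was 3.46-fold higher. The second probe set of Cd40 had the same order of low and high arrays, below background in the syngraft, 88.9 with CsA and 110 to 166 on the others. The ligand gene Cd40lg, which lies outside the symbol rule, was below background in the syngraft and the untreated allograft and did not exceed 57.3 on any array. The 6 macrophage markers summed to 7639 in the syngraft, 8095 in the untreated allograft and 7578 with CsA, a sum carried by Lyz2 and Csf1r. Within it Msr1 read 145, 838 and 167 and Itgam 103, 249 and 129 on these arrays, so that both were high where Cd40 was high, while the other 4 differed by less than 2-fold between the untreated grafts. The 4 dendritic cell markers summed to 324, 469 and 454. Of these Itgax read 131, 299.9 and 195, whereas Flt3 read 93.0, 87.6 and 131 and Xcr1 64.6, 45.8 and 92.7. Ccr7 was above background only in the untreated allograft, at 35.8. The part of these cells in the Cd40 signal was not tested.

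Tnfsf13b (BAFF, a survival factor of B cells) was below background in the syngraft and read 85.8 in the untreated allograft, 85.3 with ABH4, 83.6 with BH4, 83.7 with CsA and 98.9 with NIL. All 5 allografts were alike, and the untreated one was at least 2.47-fold above the syngraft. Unlike Ltb, Tnf and Tnfrsf18, it had nearly the same signal in the CsA graft as in the untreated one, a log2 difference of -0.04. Of its receptors, Tnfrsf13b (TACI) lay between 65.7 and 103 with the highest signal on the ABH4 array. Tnfrsf13c (BAFF receptor) was above background only with ABH4 (52.1) and NIL (42.5), and Tnfrsf17 (BCMA, a plasma cell receptor) only in the syngraft (46.7). Of the 4 B and plasma cell markers measured, the B cell genes Cd79a, Cd79b and Ms4a1 were each lower in the untreated allograft than in the syngraft by less than 2-fold and did not exceed 64.6 on any array. The plasma cell gene Jchain read 225 in the syngraft, 534 in the untreated allograft, 1840 with ABH4, 473 with BH4, 1313 with CsA and 1649 with NIL. Their part in the Tnfsf13b signal was not tested.

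**Figure D3:**
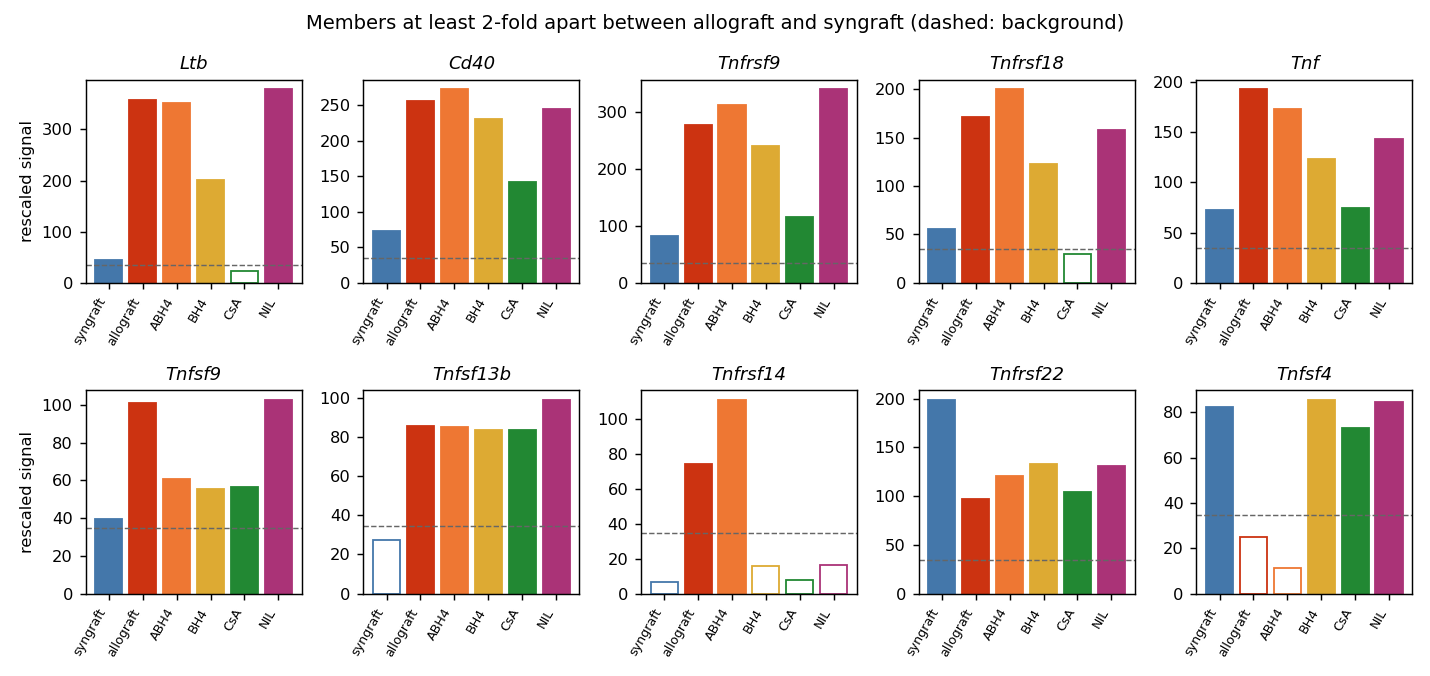
Rescaled signal on each of the 6 arrays of the 10 members that differed at least 2-fold between untreated allograft and syngraft, 1 bar per array, open where below the background of 34.8 (dashed line). Ltb, Tnfrsf18, Tnfrsf9 and Tnf are low in the syngraft and with CsA, Tnfsf13b is alike on all 5 allografts, and Tnfsf4 and Tnfrsf14 switch between background and at most 85.4 and 111.

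The 5 receptors with a death domain gave no difference of 2-fold in any comparison. Besides Tnfrsf1a they were Fas, the receptor that triggers apoptosis of target cells, Tnfrsf10b, the TRAIL receptor, Tnfrsf21 and Tnfrsf25. Fas read 57.8 in the syngraft and 40.0 in the untreated allograft, its lowest array, and lay between 49.3 and 56.6 in the treated grafts. Tnfrsf21 lay between 134 and 180. Tnfrsf10b did not exceed 39.1, and Tnfrsf25 was above background with CsA alone, at 34.9, next to the limit. The death ligand Fasl, outside the symbol rule, read 48.0 in the syngraft, 73.6 in the untreated allograft, 91.8 with ABH4, 89.9 with BH4, 44.8 with CsA and 106 with NIL. Fasl was again lowest in the syngraft and with CsA, 1.53-fold apart between allograft and syngraft. Tnfsf10 (TRAIL) lay between 56.6 with CsA and 83.6 with ABH4.

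The decoy receptors bind ligands without passing on a death signal. Tnfrsf22 read 198 in the syngraft, 96.6 in the untreated allograft, 121 with ABH4, 133 with BH4, 104 with CsA and 131 with NIL. The syngraft was above all 5 allografts, 2.06-fold above the untreated one, just past the threshold. A second probe set read 121 in the syngraft and 65.7 in the untreated allograft (log2 difference -0.88), another was below background on every array, and the mean over the 3 probe sets did not reach 2-fold (-0.64). Tnfrsf23, its neighbour and a close relative, was likewise highest in the syngraft with 155, against 82.1 to 105 in the allografts. Whether the probe sets tell these related genes apart was not tested. The summed endothelial markers were also highest in the syngraft, 1374 against 732 to 1095 in the allografts, as were the fibroblast markers given above. Of the endothelial markers, Pecam1 alone was not highest there, at 315 against 320 with NIL. The part of these cells in the decoy signals was not tested.

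The remaining receptors differed by less than 2-fold in all comparisons. Tnfrsf12a (Fn14, the TWEAK receptor, induced in injured tissue) lay between 2133 with ABH4 and 3075 in the untreated allograft. Its ligand gene Tnfsf12 shares both of its probe sets with its neighbours; the one listed for Tnfsf12 and Tnfsfm13 read 191 in the syngraft and 138 to 178 in the allografts. Tnfrsf11a (RANK) lay between 92.5 and 140.5 with its highest signal in the syngraft. Tnfrsf19 did not exceed 42.7.

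With ABH4, no member differed from the untreated allograft by 2-fold (0 of 33 higher against 0.694% of all genes, 0 lower against 0.282%). The median log2 difference was 0 for ligands and 0.09 for receptors. The member with the largest drop was Tnfsf9, from 101 to 60.9, a log2 difference of -0.73. Ltb, Tnf, Cd40, Tnfrsf9 and Tnfrsf18 were all within 1.17-fold of the untreated allograft.

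With BH4, 1 of 33 members was higher than in the untreated allograft (3.03%, against 1.54% of all genes) and 1 was lower (3.03%, against 0.42%). These were Tnfsf4, at least 2.46-fold higher, and Tnfrsf14, at least 2.14-fold lower. Tnfsf9 was 55.3 with BH4 against 101 untreated, a log2 difference of -0.87. Ltb was 200.3 against 357 (-0.83) and Tnf 123 against 192 (-0.65). None of these reached 2-fold. The second probe set of Tnfrsf9 was past 2-fold lower with BH4 (log2 difference -1.29), whereas the brightest gave -0.21.

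With CsA, 5 of 33 members were at least 2-fold lower than in the untreated allograft (15.2%, against 4.06% of all genes) and 1 was higher (3.03%, against 3.21%, no more than the share of all genes). Lower were Ltb (at least 10.3-fold), Tnfrsf18 (at least 4.92-fold), Tnf (2.57-fold), Tnfrsf9 (2.41-fold) and Tnfrsf14 (at least 2.14-fold). Tnfsf4 was at least 2.10-fold higher. By kind, 2 of 10 ligands and 3 of 23 receptors were lower, and the median log2 difference was -0.43 for ligands and -0.11 for receptors, against 0 for all genes. Cd40, at 142 against 256, and Tnfsf9, at 56.6 against 101, were lower without reaching 2-fold. The T cell markers, at 258 against 1773, and the cytotoxic cell markers, at 803 against 6801, were lower on the same array. So were all 3 neutrophil markers measured, S100a8 by 3.63-fold, S100a9 by 2.43-fold and Csf3r by 2.29-fold (sum 334 against 917). Of the 6 macrophage markers only Msr1 was at least 2-fold lower, by 5.02-fold. Adgre1 and Lyz2 were higher by 1.34-fold and 1.09-fold, and the macrophage sum was 7578 against 8095. The fibroblast markers were higher, at 13473 against 2039. The part of these cells in the differences of the members was not tested.

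With NIL, 1 of 33 members was higher than in the untreated allograft (3.03%, against 1.33% of all genes) and 1 was lower (3.03%, against 0.791%). They were again Tnfsf4, at least 2.43-fold higher, and Tnfrsf14, at least 2.14-fold lower. The NIL array held the highest signal of 7 members, as did the syngraft array, while the ABH4 array held that of 10. The share of all genes was not computed. Among the 7 with NIL were Lta, Ltb, Tnfrsf9 and Tnfrsf1b, which were within 1.42-fold of the untreated allograft. All comparisons of treated grafts share the untreated allograft array, so the repeated calls of Tnfsf4 and Tnfrsf14 with BH4, CsA and NIL rest on the same readings of that array, 25.2 (below background) and 74.3.

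ABH4 differs from BH4 by an amino group in place of the oxo group on the pterin ring, and both were given at the same dose and interval, so they form the 1 matched pair of related compounds. Tnfrsf14 was at least 3.19-fold higher with ABH4 than with BH4 (1 of 33 members, 3.03%, against 0.46% of all genes). Tnfsf4 was at least 2.46-fold lower (1 of 33, against 0.96%). The other 31 members differed by less than 2-fold. Ltb was 351 with ABH4 and 200.3 with BH4, a log2 difference of 0.81, Tnfrsf18 was 199.8 and 123 (0.70) and Tnf 173 and 123 (0.49). With 1 array each, the difference between the compounds has no interval and no test, and the members within 2-fold are not shown to respond alike. The salivary gland markers on the BH4 array, 10479 against 224 with ABH4, and the T cell markers, 1247 against 1892, moved with this comparison. So did the cytotoxic cell markers, 4771 against 6831, the fibroblast markers, 8969 against 4421, and Jchain, 473 against 1840. The part of these cells in the comparison was not tested. NIL was given at another dose, and CsA at another dose and interval, and neither was compared with the pterins.

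Downstream of the receptors, 15 of 17 listed adaptor and death signalling genes were measured, of which 3 exceeded the syngraft by 2-fold or more in the untreated allograft (20%, against 6.87% of all genes) and none was below it by as much (median log2 difference 0.59). Bid, which links death receptors to mitochondria, was below background in the syngraft and read 159 in the untreated allograft, 162 with ABH4, 170 with BH4, 50.7 with CsA and 129 with NIL. It was at least 4.56-fold higher in the allograft than in the syngraft. Traf1, an adaptor that is itself an NF-kB target, was below background in the syngraft and with CsA and read 104, 92.3, 46.7 and 79.3 in the untreated, ABH4, BH4 and NIL grafts. Birc2, a ubiquitin ligase of the TNF receptor complex, was 2.21-fold higher in the allograft. With CsA 3 of the 15 were at least 2-fold lower (20%, against 4.06% of all genes), Bid, Traf1 and Traf5, with a median of -0.44 over the list.

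All 12 measured of 14 listed NF-kB subunit and feedback genes were above the syngraft in the untreated allograft, with a median log2 difference of 0.70, as were 5371 of the 10022 genes above background on at least 1 of these arrays. Of the 12 only Tnfaip3 reached 2-fold (8.33%, against 6.87% of all genes). Tnfaip3 (A20, an inhibitor of NF-kB signalling) read 56.5 in the syngraft and 126 in the untreated allograft, a 2.22-fold difference. Nfkbia and Nfkbie, which encode inhibitors that hold NF-kB in the cytoplasm, were 1.90-fold and 1.89-fold higher. With CsA all 12 were below the untreated allograft, with a median of -0.54, as were 5635 of 9898 genes, and Nfkbie was the 1 gene at least 2-fold lower. The sheddases Adam17, which releases soluble TNF, and Adam10 were higher in the untreated allograft by 0.59 and 0.37 on the log2 scale and different from it by -0.59 and -0.89 with CsA.

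Of 13 measured genes that TNF is known to induce, 4 passed 2-fold upwards (30.8%, against 6.87% of all genes) and 1 downwards (7.69%, against 4.81%) from syngraft to untreated allograft, with a median log2 difference of 0.26. Il6, a pro-inflammatory cytokine, read 81.7 in the syngraft, 434 in the untreated allograft, 409.6 with ABH4, 176 with BH4, 83.3 with CsA and 368 with NIL. As for Ltb, the syngraft and CsA grafts were low, BH4 was in between and the other 3 were high. Ccl2, a monocyte chemokine, and Icam1, an adhesion molecule, were 3.29-fold and 2.69-fold higher in the allograft and, at 1276 and 443 with CsA, remained within 2-fold of the untreated allograft (1186 and 479). Mmp3, a matrix protease, was 2.35-fold lower in the allograft. With CsA, 2 of the 13 were at least 2-fold lower (15.4%, against 4.06% of all genes), Il6 and Selp, and none was higher by as much. The median was 0, with 6 genes above and 6 below the untreated allograft.

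**Figure D4:**
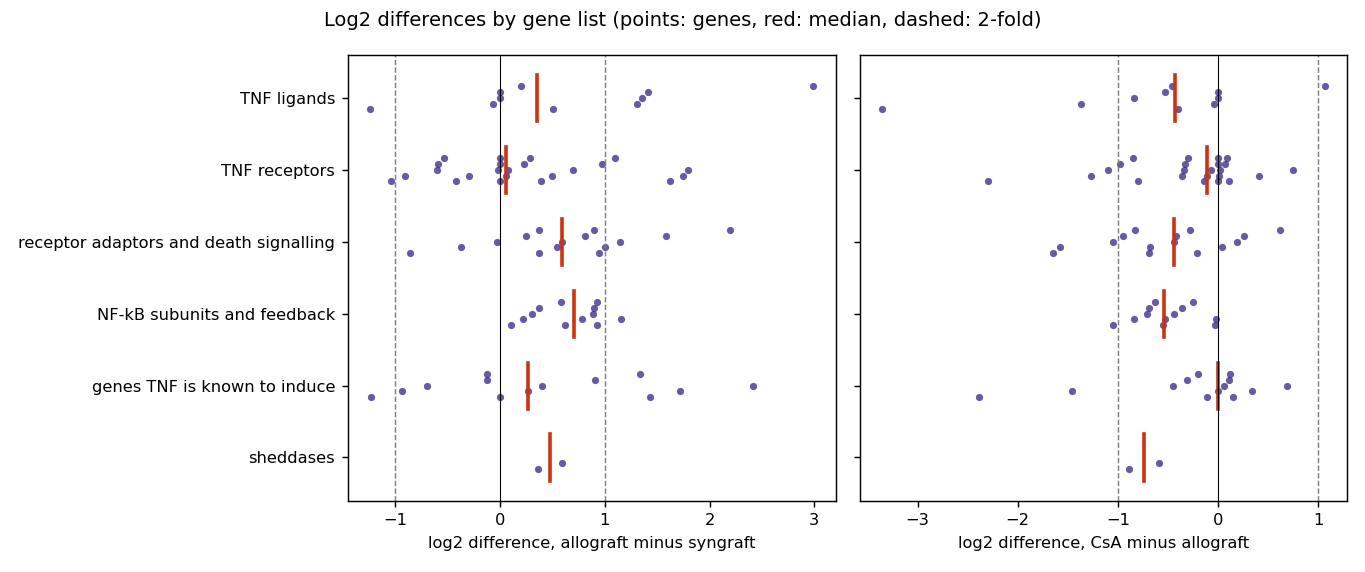
Log2 differences of untreated allograft minus syngraft (left) and CsA-treated minus untreated allograft (right) for the TNF ligands, the TNF receptors and the downstream lists, 1 point per gene, with the median as a vertical bar and dashed lines at 2-fold. The NF-kB genes lie above 0 on the left (median 0.70) and below 0 on the right (median -0.54), while the genes TNF is known to induce have medians of 0.26 and 0.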

How the data were processed

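Signal intensity, 1 linear value per probe set and array, was used as deposited by the authors. Its mean after trimming 2% from each end was 200.1 on every array, so the arrays had been scaled, while the summarisation software was not given in the sources used here. Groups were taken from the labels. All arrays were brought to a common median, the mean of their 6 medians over 22626 non-control probe sets (shifts of -0.09 to 0.10 on the log2 scale). Values at or below the 30th percentile, 34.8, were set to it before log2. Probe sets were named from the platform annotation, which gave 20380 single-gene probe sets for 12393 genes, while 691 listed for several genes and 1555 without a gene were left out. Members at least 2-fold apart in any of the 6 comparisons were named with every array's value. Their partner ligands or receptors were named with all values, some values or a range. From each further list, the 3 largest differences between allograft and syngraft were named with all values, some values or a fold. Other names were picked after values were seen. The members and lists were chosen with earlier results of these data known. No positions of genes were used, because the annotation names no build; neighbours and promoters come from RefSeq GRCm38.p6. Alternatives were no rescaling, quantile normalization, other background levels, the mean over probe sets, a 1.5-fold threshold and probe sets in place of genes. The calls were tested on simulated data. Python 3.11.15, numpy 2.4.6 and pandas 2.3.3 were used.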

Additional observations from a re-analysis of the deposited data

How the results depend on the processing

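No paired analysis was possible because each group had 1 array, and for the same reason no replicate could be left out. Of the 186 alternative values of counts and medians, 130 stayed within tolerance (1.5 times for a count, 0.1 for a median log2 difference), 56 moved beyond it and 0 reversed. Of 22 named member differences of at least 2-fold under 5 alternatives each, 92 of 110 values stayed past 2-fold and 18 did not: 12 with background at the 50th percentile, 4 on the deposited values (Tnfrsf14 each time) and 2 with the mean over probe sets (Tnfrsf22 at -0.64 and, with CsA, Tnfrsf9 at -0.79). By construction, background at the 50th percentile (83.3) sets faint members level, and background at the 10th (6.47) lets faint signals differ. The mean over probe sets takes in, for Tnfrsf22, a probe set that was below background on every array. For Tnfrsf9 it takes in a probe set with a CsA log2 difference of 0.43. For the other settings the cause was not tested.

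With background at the 50th percentile, 20 members and 14 receptors were above it, and the share of all genes above it was not computed. At that level allograft against syngraft gave 5 higher, 1 lower and a ligand median of 0. Of all 12393 genes, 618 were higher and 295 lower. At the 10th percentile that comparison gave 6 lower and medians of 1.19 for ligands and 0.20 for receptors. All genes lower also rose in number, to 1378 from 596. Lower members numbered 1 with the mean over probe sets, against 485 of all genes, and 5 at 1.5-fold. The ligand median was 0.21 on the deposited values and 0.91 over ligands above background. Against the untreated allograft, members higher and lower at the 10th percentile numbered 2 and 2 with ABH4 and 4 and 2 with BH4. They numbered 4 and 8 with CsA, 3 and 2 with NIL, and 3 and 3 for ABH4 against BH4. All genes so called rose too. They numbered 538 and 440 with ABH4, 719 and 495 with BH4 and 1099 and 896 with CsA. With NIL they were 878 and 485, and for ABH4 against BH4 491 and 583. At the 50th percentile, higher members numbered 0 with BH4, CsA and NIL, lower members 0 with BH4 and NIL, and ABH4 against BH4 gave 0 and 0. Of all genes, 95, 181 and 18 were then higher with BH4, CsA and NIL, and 13 and 29 lower with BH4 and NIL. ABH4 against BH4 gave 14 and 46. On the deposited values, lower members numbered 0 with BH4 and NIL, against 41 and 53 of all genes. At 1.5-fold, 1 member was lower with ABH4, 4 with BH4 and 9 with CsA, 2 were higher with CsA and 2 with NIL, and 4 were higher with ABH4 than with BH4. The CsA ligand median of -0.43 was -0.28 on the deposited values, -0.55 with quantile normalization, -0.68 at the 10th percentile and 0 at the 50th. The CsA receptor median of -0.11 was 0 on the deposited values and at the 50th percentile and -0.22 over receptors above background. The other treated medians stayed between -0.22 and 0.24 under every alternative. Counting probe sets, 2 were lower with BH4 and 2 higher with ABH4 than with BH4. The shares of all genes at 1.5-fold and of all probe sets were not computed.

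Over all genes, rescaling changed the balance: allograft against syngraft gave 852 higher and 596 lower after it and 633 and 860 without it, CsA against allograft 398 and 503 after it and 599 and 327 without it, and NIL against allograft, with more genes higher either way, 165 and 98 after it and 269 and 53 without it. The 1 array per group, not the signal, limits what can be said of bright members, and members near 34.8 are limited by signal over background.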
